A study of Mus musculus with 6 samples.

Results

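Voltage-gated calcium channel subunits were followed here as 9 genes, taken by symbol from a table of 48709 genes: the L-type pore genes Cacna1c and Cacna1d, the T-type pore genes Cacna1g and Cacna1h, the alpha2-delta genes Cacna2d1 and Cacna2d2, and the beta genes Cacnb1, Cacnb2 and Cacnb3. All 9 were found and all 9 passed the filter on low values, which left 26747 genes for testing. The samples were hearts of C57BL6/J mouse embryos, sequenced as polyA RNA in 6 libraries. The 3 controls were littermates and carried floxed alleles of both Rbpms and Rbpms2, genes for a pair of RNA-binding proteins, with no Cre in the label. The 3 double knockouts carried the same floxed alleles and were positive for a Cre transgene labelled XML, described by the submitters as giving a deletion specific to cardiomyocytes. Every library thus came from animals with floxed alleles, Cre was named only in the knockouts, and no group had Cre alone, so effects of Cre and of the deletion cannot be told apart. The embryonic day, the floxed exons and the number of hearts in a library are not stated in the labels. Libraries are called controls 1 to 3 and knockouts 1 to 3 by the numbers in their labels, and values of the 3 libraries of a genotype are given in that order. Nothing in the labels says that the 3 came from separate hearts, so the tests cover the variation among these libraries, part of which may be technical. By its sex pattern, given below, library 3 of each genotype was not a technical repeat of libraries 1 and 2. Whether libraries 1 and 2 were repeats of each other is not stated.

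Values are normalised read counts as deposited; from their spacing they appear to be counts scaled by a single factor in each library and then rounded. They summed to between 19770390 and 20215282 per library, for an estimated 18760458 to 21993003 reads. Both targeted genes were lower in the libraries labelled as knockouts. Rbpms stood at 3551 to 3956 in controls and 670 to 721 in knockouts, and Rbpms2 at 2444 to 2716 and 1257 to 1676 (log2 fold changes -2.44 and -0.83, limma adjusted p = 6.83e-13 and 2.92e-05). All 12 cardiomyocyte markers were present in each library, with summed values of 811272 to 885000 in controls and 663241 to 755149 in knockouts. Of these 12 markers 0 rose and 2 fell, the alpha myosin heavy chain gene Myh6 (-0.82, limma adjusted p = 1.68e-05) and the cardiac actin gene Actc1 (-0.52, limma adjusted p = 0.000647), and their part in the subunit differences was not tested. Over all genes tested, 2.31% rose and 2.55% fell. Libraries numbered 3 had a male pattern of Xist and Eif2s3y and the others a female one. Expression also followed GC content (the share of G and C bases) differently between libraries. Across genes, the GC content of the transcript and the deviation of a library from the mean had a Spearman correlation of 0.28, 0.22 and 0.40 for the control libraries. For the knockout libraries it was 0.13, -0.18 and -0.59, so that each was below each control. GC content thus moved with genotype, and its part in the results was tested only by fitting them again after correction of each library for GC content and transcript length.

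A voltage-gated calcium channel opens when the membrane is depolarised and lets calcium into the cell. The pore is a single large alpha1 protein, whose gene sets the channel class. L-type channels need strong depolarisation and carry the calcium that triggers release from the sarcoplasmic reticulum and contraction. T-type channels open at voltages closer to rest and contribute to pacemaking. They are abundant in the fetal heart and decline in the working myocardium after birth. L-type pores bind a cytoplasmic beta subunit, which aids trafficking and gating, and an extracellular alpha2-delta subunit, which raises the number of channels at the surface. T-type pores do not require either.

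Cacna1d, Cacna1h and Cacna2d1 passed the test between genotypes. The first 2 fell, and Cacna2d1 rose. So 3 of the 9 genes were called at an adjusted p under 0.05 (limma on log2(value + 1), adjusted over all tested genes), against 4.86% of all genes tested. Among genes with a mean of at least 50, as all 9 had, the share called was 7.92%. After GC and length correction the same 3 genes were called, against 5.78% of all genes. By direction 2 of 9 fell, against 2.55% of all genes, and 1 of 9 rose, against 2.31%. The knockout and control ranges did not overlap in 5 of 9 genes, against 21.7% of all genes and 31.0% of those with a mean of at least 50. The median log2 fold change of the 9 genes was 0.12, beside 0.015 over all genes tested, and 4 of the 9 differences were below 0. The median of the 9 turned to -0.025 after GC and length correction, beside 0.023 over all genes. Fold changes are knockout minus control, and their scale understates the change of low genes.

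**Figure D1:**
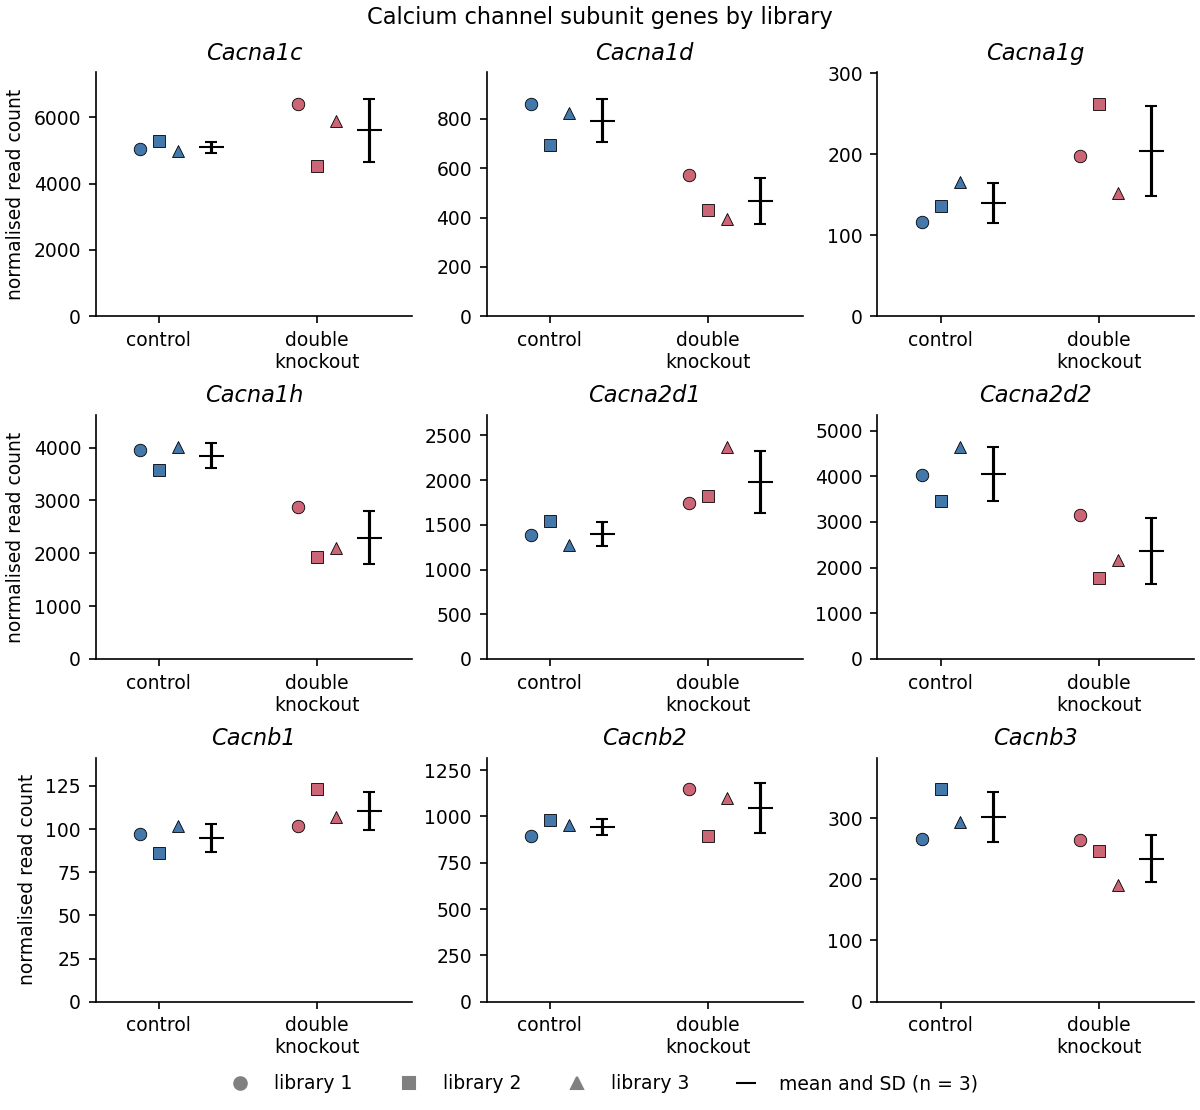
Normalised read count (vertical axes, linear from 0) of the 9 subunit genes in each of 3 control (blue) and 3 double knockout (red) libraries, with marker shape for the library number and the mean and SD beside the points. The groups lie apart in Cacna1d, Cacna1h, Cacna2d1, Cacna2d2 and Cacnb3, and overlap in the other genes.

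Cacna1c encodes the main L-type pore of working cardiomyocytes (chromosome 6, 118587240 to 119196418, minus strand, mm10). It had 5037, 5277 and 4968 normalised reads in the control libraries and 6395, 4528 and 5875 in the knockout libraries. Knockout 2 was below every control and the other knockouts were above them. The means were 5094 ± 162 and 5599 ± 964 (SD, n = 3 per genotype). The log2 fold change of 0.12 ± 0.11 (SE) did not pass the test (limma adjusted p = 0.569), and its 95% interval ran from -0.10 to 0.35. That interval leaves out any change of the size seen in Cacna1d.

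Cacna1d encodes the L-type pore that opens at more negative voltages than that of Cacna1c and is known for its part in atrial cells and in the sinus and atrioventricular nodes (chromosome 14, 30039939 to 30491455, minus strand, mm10). Its values were 860, 695 and 825 in the control libraries and 573, 432 and 396 in the knockout libraries. Every knockout was below every control. The mean fell from 793 ± 86.9 to 467 ± 93.5, with a log2 fold change of -0.78 ± 0.13 (SE; 95% interval -1.04 to -0.51; limma adjusted p = 0.00173) and 0.584 times the control on that scale. After GC and length correction the difference was -0.80 (limma adjusted p = 0.0172). The call also held with each single library left out, at differences of -0.93 to -0.67 and adjusted p of at most 0.0241. Without the robust option of limma the adjusted p was 0.0635. Without both libraries numbered 3, in the female-pattern libraries alone, the difference was -0.64 (limma adjusted p = 0.295). The exons of Chdh, a choline dehydrogenase gene on the opposite strand, overlap 4.67% of the exon length of Cacna1d. Chdh had 3 to 9 normalised reads per library.

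The start regions of Cacna1d are shown because the gene fell and because its 2 annotated starts differ in kind. Each window runs from 250 bases before to 50 after the start and comes from RefSeq on GRCm38.p6. Capitals mark matches on either strand to any motif searched: the GC box GGGCGG, the TATA box TATAAA, the NKX2-5 core AAGTG, the GATA core GATAA, the T-box core AGGTGT, the core ACGTG shared by E-boxes and hypoxia elements, the CArG box and the MEF2 site. Matches may overlap each other.
Cacna1d at chr14:30353437-30353736, minus strand: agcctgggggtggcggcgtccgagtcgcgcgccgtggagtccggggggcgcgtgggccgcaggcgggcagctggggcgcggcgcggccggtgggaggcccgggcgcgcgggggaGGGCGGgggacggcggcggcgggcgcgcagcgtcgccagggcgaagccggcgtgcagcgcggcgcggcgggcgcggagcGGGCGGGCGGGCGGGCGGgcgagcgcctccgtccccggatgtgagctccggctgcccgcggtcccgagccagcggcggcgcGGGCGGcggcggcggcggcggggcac
Cacna1d at chr14:30491107-30491406, minus strand: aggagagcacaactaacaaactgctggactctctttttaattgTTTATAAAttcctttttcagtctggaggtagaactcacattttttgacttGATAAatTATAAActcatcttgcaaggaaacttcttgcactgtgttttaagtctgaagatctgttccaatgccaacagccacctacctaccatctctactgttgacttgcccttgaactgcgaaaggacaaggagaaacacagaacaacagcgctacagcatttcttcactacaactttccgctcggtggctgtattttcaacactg
The first window had 87.3% GC and 63 CpG pairs and 6 GC boxes, a motif found in 35.66% of all 32851 windows searched. The second had 40.3% GC and 4 CpG pairs, against a median of 7, with 3 TATA matches (in 13.62% of all windows) and 1 GATA core (in 25.41%). Its TATA matches, of which some overlap, lie in the first part of the printed window, away from the start. The other motifs had no match in these windows; over all windows the NKX2-5 core stood in 46.38%, ACGTG in 19.62%, the T-box core in 13.74%, the MEF2 site in 3.19% and the CArG box in 1.63%. Counts of reads per gene do not tell which start was used, and a match is a run of letters, not evidence of binding.

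Cacna1h, a T-type pore of the developing heart (chromosome 17, 25374285 to 25433783, minus strand, mm10), was the most abundant of the 4 pore genes per kilobase in controls. It had 3954, 3576 and 4017 normalised reads in the control libraries and 2871, 1925 and 2093 in the knockout libraries. The groups did not overlap, and knockout 1 was the closest to the controls. The mean fell from 3849 ± 239 to 2296 ± 505, with a log2 fold change of -0.76 ± 0.12 (SE; 95% interval -1.03 to -0.50; limma adjusted p = 0.00258). After GC and length correction it was -0.69 (limma adjusted p = 0.00181). The call held with each single library left out, at differences of -0.94 to -0.65 and adjusted p of at most 0.0271. It was lost without the robust option (limma adjusted p = 0.061) and without both libraries numbered 3 (-0.68, adjusted p = 0.308).

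Cacna1g, the other T-type pore of heart and a contributor to nodal pacemaking (chromosome 11, 94408391 to 94474198, minus strand, mm10), was far less abundant. Its values were 117, 136 and 166 in the control libraries and 198, 262 and 152 in the knockout libraries. Knockouts 1 and 2 were above all controls, and knockout 3 was below control 3. The means were 139.7 ± 24.7 and 204 ± 55.2, and the log2 fold change of 0.52 ± 0.18 (SE; 95% interval 0.13 to 0.91) did not pass after adjustment (limma adjusted p = 0.125). It passed where low genes were not removed before testing (limma adjusted p = 0.0144).

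Cacna2d1 encodes the alpha2-delta subunit best known from cardiac and skeletal L-type channels and is a target of gabapentin (chromosome 5, 15934691 to 16374511, plus strand, mm10). It had 1387, 1539 and 1270 normalised reads in the control libraries and 1746, 1819 and 2373 in the knockout libraries. Each knockout was above each control, knockout 3 by the widest margin. The mean rose from 1399 ± 135 to 1979 ± 343, with a log2 fold change of 0.49 ± 0.11 (SE; 95% interval 0.26 to 0.73; limma adjusted p = 0.0157). Its transcript had a low GC content of 40.69%, and genes of 40 to 42% GC had a median difference of 0.12. After GC and length correction the rise was 0.33 (limma adjusted p = 0.0115). This call was the weakest of the 3. It was lost without control 1 (0.49, adjusted p = 0.0872), control 3 (0.42, adjusted p = 0.123) or knockout 3 (0.35, adjusted p = 0.0958), without the robust option (adjusted p = 0.123), with voom weights (adjusted p = 0.109), and without both libraries numbered 3 (0.29, adjusted p = 0.412).

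Cacna2d2 encodes a second gabapentin-binding alpha2-delta subunit, known mainly from brain (chromosome 9, 107399612 to 107529343, plus strand, mm10). It was the most abundant of the 9 genes per kilobase in controls. Its values were 4039, 3452 and 4647 in the control libraries and 3158, 1771 and 2164 in the knockout libraries. All knockouts were below all controls, but knockout 1 came within 294 normalised reads of control 2. The means were 4046 ± 598 and 2364 ± 715. The log2 fold change of -0.81 ± 0.24 (SE; 95% interval -1.42 to -0.20) was as large as those of Cacna1d and Cacna1h but did not pass after adjustment (limma adjusted p = 0.1601). Without knockout 1 it was -1.04 and passed (limma adjusted p = 0.00108). With any other single library left out it did not pass, at limma adjusted p of 0.12 to 0.323. After GC and length correction it was -0.73 (limma adjusted p = 0.192).

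The start regions of both alpha2-delta genes are shown because the pair stood on opposite sides of the controls; source and marking are those of the Cacna1d windows.
Cacna2d1 at chr5:15934441-15934740, plus strand: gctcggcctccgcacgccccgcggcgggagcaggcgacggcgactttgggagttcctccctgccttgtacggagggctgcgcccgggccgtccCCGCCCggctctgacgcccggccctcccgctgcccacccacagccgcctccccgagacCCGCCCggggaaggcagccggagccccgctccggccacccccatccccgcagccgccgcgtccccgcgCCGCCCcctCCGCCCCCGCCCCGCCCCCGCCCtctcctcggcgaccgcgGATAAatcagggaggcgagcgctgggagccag
Cacna2d2 at chr9:107399630-107399929, plus strand: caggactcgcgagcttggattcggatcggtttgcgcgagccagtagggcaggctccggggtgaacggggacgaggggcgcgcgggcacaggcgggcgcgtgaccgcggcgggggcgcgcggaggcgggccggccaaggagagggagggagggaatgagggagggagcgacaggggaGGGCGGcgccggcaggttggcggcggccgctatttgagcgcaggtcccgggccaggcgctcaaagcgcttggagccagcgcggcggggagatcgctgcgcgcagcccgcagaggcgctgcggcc
Both are rich in CpG pairs, with 42 in Cacna2d1 and 43 in Cacna2d2. Cacna2d1 had 7 GC boxes and 1 GATA core, and Cacna2d2 had 1 GC box. Windows were listed for 7 of the 9 genes, and those of Cacna1g and Cacna1h are not analysed here.

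None of the beta subunit genes passed. Cacnb2, the main beta subunit of cardiomyocytes (chromosome 2, 14603088 to 14987908, plus strand, mm10), had 895, 980 and 952 normalised reads in the control libraries and 1146, 895 and 1097 in the knockout libraries. Knockout 2 equalled the lowest control while the other knockouts were above all controls. Its log2 fold change was 0.14 ± 0.10 (SE; 95% interval -0.06 to 0.35; limma adjusted p = 0.461). Its transcript was the poorest in GC of the 9, at 38.97%, and after GC and length correction the sign turned, to -0.02 (limma adjusted p = 0.9097).

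Cacnb3, a beta subunit of neurons and smooth muscle (chromosome 15, 98630840 to 98644529, plus strand, mm10), had 266, 347 and 293 in the control libraries and 264, 247 and 190 in the knockout libraries. The groups were apart by only 2 normalised reads, between control 1 and knockout 1. The log2 fold change of -0.37 ± 0.14 (SE) did not pass (limma adjusted p = 0.133). Cacnb1, the beta subunit of skeletal muscle (chromosome 11, 98001508 to 98023034, minus strand, mm10), had 97, 86 and 102 in controls and 102, 123 and 107 in knockouts. Control 3 and knockout 1 were equal, and the log2 fold change of 0.22 ± 0.16 (SE) did not pass (limma adjusted p = 0.475).

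**Figure D2:**
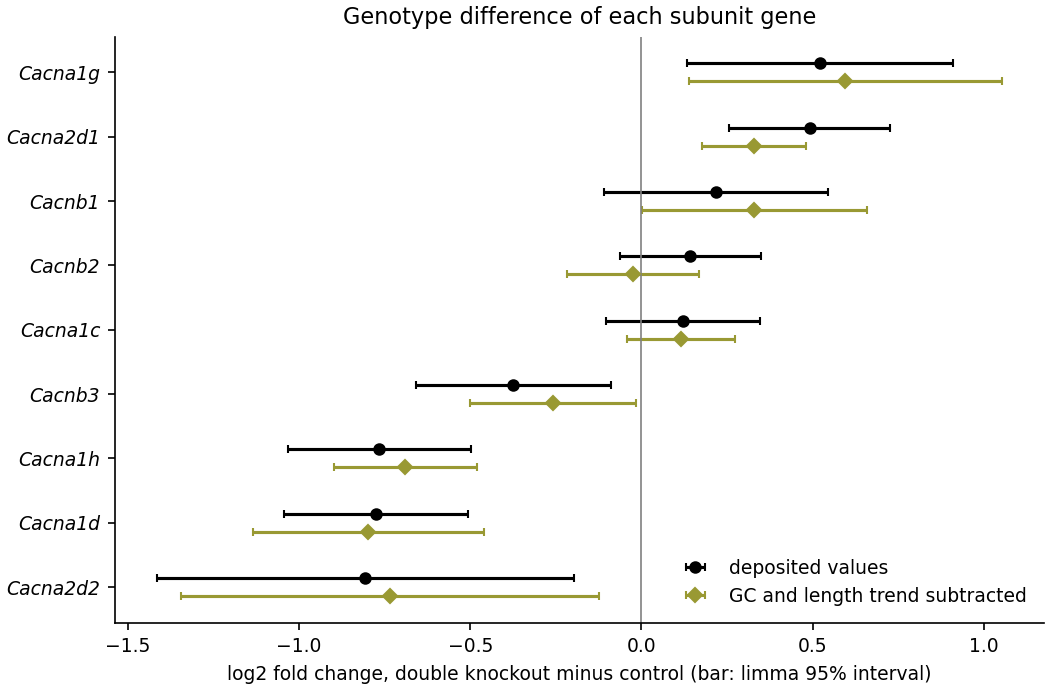
Log2 fold change (horizontal axis, double knockout minus control) with limma's 95% interval for each of the 9 genes, from the deposited values (black) and after GC and length correction (olive). Cacna1d, Cacna1h and Cacna2d2 lie near -0.8 in the deposited values, Cacna2d1 and Cacna1g near 0.5, and Cacnb2 changes sign between the treatments of GC content.

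The GC content of the 9 longest transcripts ran from 38.97% (Cacnb2) to 61.34% (Cacnb3). Over 11913 protein-coding genes averaging at least 50, the median difference was 0.12 at 40 to 42% GC and -0.12 at 58 to 60%. Cacna1h, at 59.95% GC, and Cacna2d2, at 55.83%, lay well below the median of genes of like GC content. Cacna1d, at 49.6%, sat where that median was -0.015. Cacna1g and Cacnb1, at 58.06% and 59.75%, lay above it. Cacnb3, with a difference of -0.37, was also below the median, which was -0.129 at 60 to 62% GC.

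**Figure D3:**
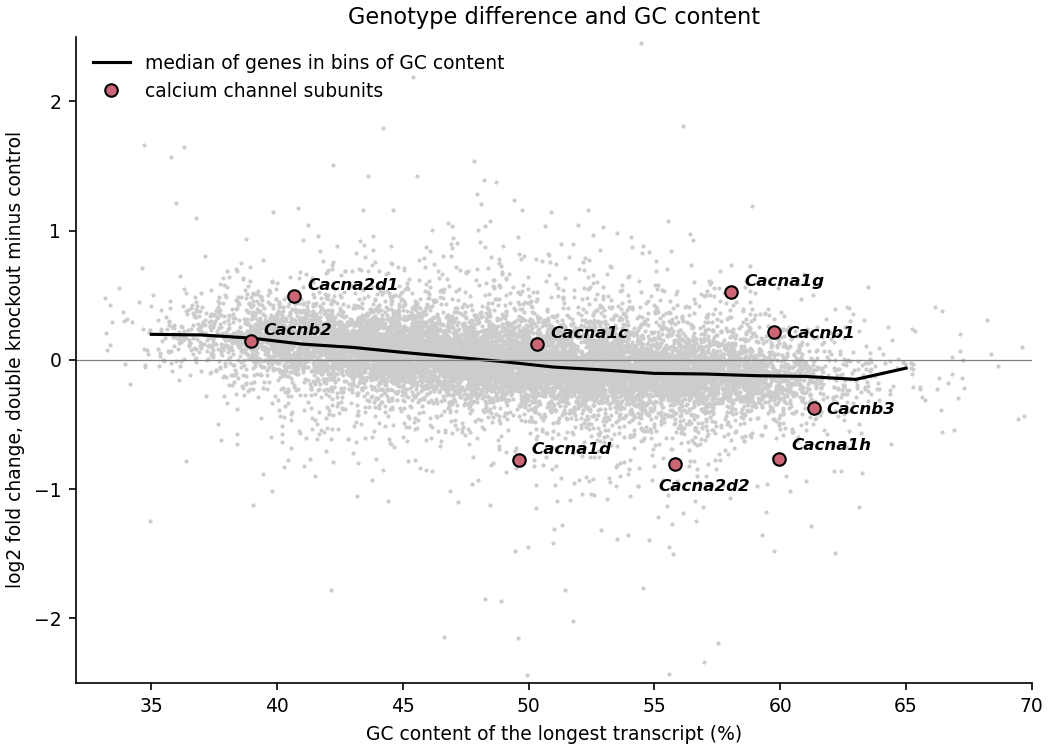
Log2 fold change (vertical axis) against GC content of the longest transcript (horizontal axis, %) for 11913 protein-coding genes averaging at least 50 (grey; 13 lie outside the axes), with the median in bins of at least 20 genes (line) and the 9 subunit genes (red). The line falls from 0.197 at the lowest bin to -0.152 at 62 to 64% GC. Cacna1d, Cacna1h and Cacna2d2 lie furthest below it, and Cacnb3 and Cacnb2 lie below it by less.

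To compare levels between genes, values were divided by the length of each gene's merged exons. In controls the order of mean normalised reads per kilobase was Cacna2d2 (509.1 ± 75.2), Cacna1h (394 ± 24.4), Cacna1c (240.4 ± 7.7), Cacna2d1 (113 ± 10.9), Cacnb3 (75.3 ± 10.3), Cacnb2 (71.2 ± 3.3), Cacna1d (62.9 ± 6.9), Cacnb1 (21.0 ± 1.8) and Cacna1g (13.8 ± 2.4; all SD, n = 3). Neighbours in this order had ranges apart, except Cacnb3 with Cacnb2 and Cacnb2 with Cacna1d, which overlapped. In knockouts Cacna2d2 (297.5 ± 90), Cacna1c (264 ± 45.5) and Cacna1h (235 ± 51.7) led, and each overlapped the next of these 3. The T-type pore gene Cacna1h thus stood above Cacna1c in each control library. In each knockout library the order was the other way. Cacna1c had 301.78, 213.68 and 277.24 per kilobase there, and Cacna1h had 294.07, 197.17 and 214.38. Their ranges in knockouts overlapped, and this change of order was not tested. With the longest transcript as the length, Cacnb2 ranked above Cacnb3 in controls, and Cacna1c above Cacna2d2 in knockouts.

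Summed per kilobase, the 2 L-type pore genes had 303 ± 3.1 in controls and 301 ± 50 in knockouts (two-sided exact permutation p = 1.0 over 6 libraries). The 2 T-type pore genes had 416.5, 379.7 and 427.8 in the control libraries and 313.6, 223.0 and 229.4 in the knockout libraries, or 0.626 times the control mean. The ranges of the T-type sum were apart, and the exact permutation p of 0.1 is the smallest that 3 against 3 libraries allow. The alpha2-delta sum was 622 ± 64.4 in controls and 457 ± 84.5 in knockouts, also apart (exact permutation p = 0.1). The beta sum was 168 ± 12.1 and 162 ± 11.5 (exact permutation p = 0.6).

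Shares within a library do not depend on how that library was scaled, but GC content can still affect them. The T-type share of the 4 pore genes was 57.7%, 55.5% and 58.8% in the control libraries and 47.5%, 47.4% and 42.6% in the knockout libraries. Each knockout was lower, by 11.5 percentage points on average. Cacna1d made up 20.7% ± 2.28 of the L-type pair in controls and 12.35% ± 1.93 in knockouts (SD, n = 3), again with the ranges apart. Cacna1h made up 96.6% ± 0.55 of the T-type pair in controls and 91.9% ± 3.01 in knockouts, the lowest being 88.4% in knockout 2. Cacna2d2 made up 82.0%, 77.8% and 85.1% of the alpha2-delta pair in the control libraries and 73.9%, 60.3% and 58.8% in the knockout libraries. Cacnb2 made up 42.6% ± 1.19 of the 3 beta genes in controls and 48.9% ± 5.34 in knockouts, where knockout 2 (43.3%) was within the controls' range. Over the 5 shares, the exact permutation p was 0.1 for all but the Cacnb2 share (0.2), and none was below 0.125 after Benjamini-Hochberg adjustment. With GC and length correction, an alternative chosen after seeing the data, the T-type share was lower by 10.1 points in knockouts (56.6% ± 1.6 and 46.5% ± 1.31), and the Cacna2d2 share was 80.4% ± 3.43 and 66.3% ± 5.94, both with ranges still apart. The Cacnb2 share was then 45% ± 2.01 and 46.4% ± 4.68, a difference of 1.43 points against 6.3 before correction.

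**Figure D4:**
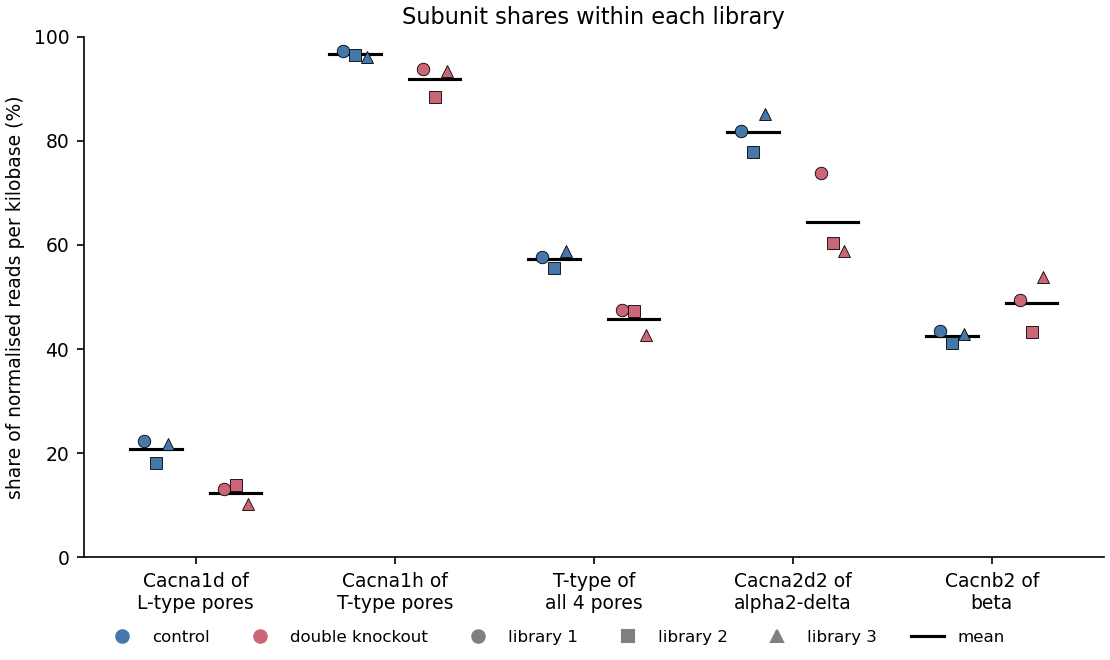
Share (vertical axis, % of normalised reads per kilobase) of the named gene or class within its subunit group in each control (blue) and double knockout (red) library, with the mean as a line and marker shape for the library number. Knockouts lie below controls in the first 4 shares, and the groups overlap in the Cacnb2 share.

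Among the 17 other genes of the channel family, 15 were tested, 1 rose and 1 fell, with a median of 0.05. Over all genes tested, 2.31% rose and 2.55% fell. Cacna1e, the R-type pore, had 82, 86 and 86 normalised reads in the control libraries and 138, 167 and 230 in the knockout libraries. Every knockout was above every control, and the gene rose by 1.03 ± 0.17 (log2 fold change and SE; limma adjusted p = 0.001001). It passed with each single library left out and after GC and length correction, and was lost without the robust option (limma adjusted p = 0.0519), with voom weights (0.0539) and without both libraries numbered 3 (0.17). Cacna1s, the L-type pore of skeletal muscle, fell from 45 ± 7.21 to 24.7 ± 4.04 (-0.84, limma adjusted p = 0.045). This call was lost without control 1 (limma adjusted p = 0.221), control 3 (adjusted p = 0.2), knockout 2 (adjusted p = 0.08) or knockout 3 (adjusted p = 0.172), after GC and length correction (0.0574), with libraries scaled to equal totals (0.0514) or equal upper quartiles (0.0572), without the robust option (0.114), with voom weights (0.102) and without both libraries numbered 3 (0.476). The most abundant genes of this list that did not pass were Cacng6, a gamma subunit gene (355 ± 31.2 and 346 ± 58.0), and Cacna1a, the P/Q-type pore (191 ± 11.1 and 203 ± 57.3). In 6 of the 17 genes at least 1 library stood at 0.

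Of 26 genes for proteins that bind, modify or place these channels or regulate channel genes (the transcription factors Rest and Egr1), 0 rose and 1 fell, with a median of -0.047. The shares over all genes tested were 2.31% and 2.55%. The gene that fell was Cav3, caveolin of muscle, whose caveolae hold a pool of calcium channels. Its values were 1085, 909 and 1000 in the control libraries and 629, 759 and 690 in the knockout libraries, all apart (-0.53 ± 0.10, limma adjusted p = 0.00282). The Cav3 call was lost without control 1 (limma adjusted p = 0.055), without the robust option (0.0562) and without both libraries numbered 3 (0.287). The most abundant of the others were Prkar1a, a regulatory subunit of protein kinase A (9032 ± 430 and 9903 ± 379), and Ahnak, a scaffold that binds beta subunits (6192 ± 578 and 6821 ± 604). The list also held the RGK GTPases Rrad, Gem, Rem1 and Rem2, which inhibit L-type channels through the beta subunit, and none of these 4 passed. Over both lists 3 genes were called, and 1 without control 1 (Cacna1e).

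Cacna1d, Cacna1g and Cacna1h are known to act in the node and the atria, and some markers of both were lower in knockouts. Of these subunit genes, Cacna1d and Cacna1h fell, while Cacna1g had a higher mean in knockouts and did not pass. Of 12 node markers 0 rose and 4 fell (Hcn4, Cpne5, Vsnl1 and Rgs6), with summed values of 5551 to 6144 in controls and 4117 to 4818 in knockouts. No node marker was at 0 in any library, though Isl1 had only 2 to 14 normalised reads. Of 12 atrial markers 0 rose and 5 fell (Myl7, Kcnj5, Nr2f1, Stard10 and Kcna5), with sums of 75994 to 93852 and 67675 to 71607. Differences were below 0 in 9 of the 12 atrial markers. Nppa (0.13), Bmp10 (0.37) and Sln (0.17) had higher means in knockouts and did not pass. Bmp10 passed with no filter on low values and without knockout 2. Over all genes tested, 2.31% rose and 2.55% fell. The node count was 2 without control 2 or control 3 and 6 without knockout 1, and the atrial count was 3 without control 3 or knockout 3. Without both libraries numbered 3 the node and atrial counts were 1 and 0, without the robust option 2 and 1, without it and the variance trend 0 and 0, and with voom weights 2 and 2. Many of these genes are also expressed outside the node and atria of the embryo. In bulk tissue, fewer cells of a type and less RNA per cell cannot be told apart, and the part of node or atrial cells in the subunit differences was not tested.

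Of 12 smooth muscle and mural markers 0 rose and 3 fell (Acta2, Cnn1 and Smtn), with sums of 49153 to 53744 in controls and 22641 to 26468 in knockouts. Acta2, smooth muscle actin that early cardiomyocytes also express, fell from 26428 ± 1978 to 6030.3 ± 1183. That gene made up much of the sum, and Cnn1 fell from 5238 to 1569. Differences were below 0 in 9 of these 12 markers. Kcnj8 (0.81), Abcc9 (0.27) and Pdgfrb (0.16) had higher means in knockouts and did not pass. Among skeletal muscle markers 0 of 10 tested rose and 3 fell (Ckm, Tnnt3 and Mylpf). Their sums were 930 to 1124 in controls and 823 to 1116 in knockouts, and the defining genes Myod1, Myog and Myf5 were at 0 to 5 in each library. For neurons and neural crest 0 of 10 tested passed in either direction, with sums of 228 to 291 and 134 to 274, and Phox2a, Th, Dbh and Chat were at 0 in at least 1 library. Of 12 endothelial and endocardial markers 1 rose (Emcn) and 0 fell, and of 12 fibroblast and epicardial markers 0 passed. Beside these counts, 2.31% of all genes tested rose and 2.55% fell. The part of these cells in the subunit differences was not tested.

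**Figure D5:**
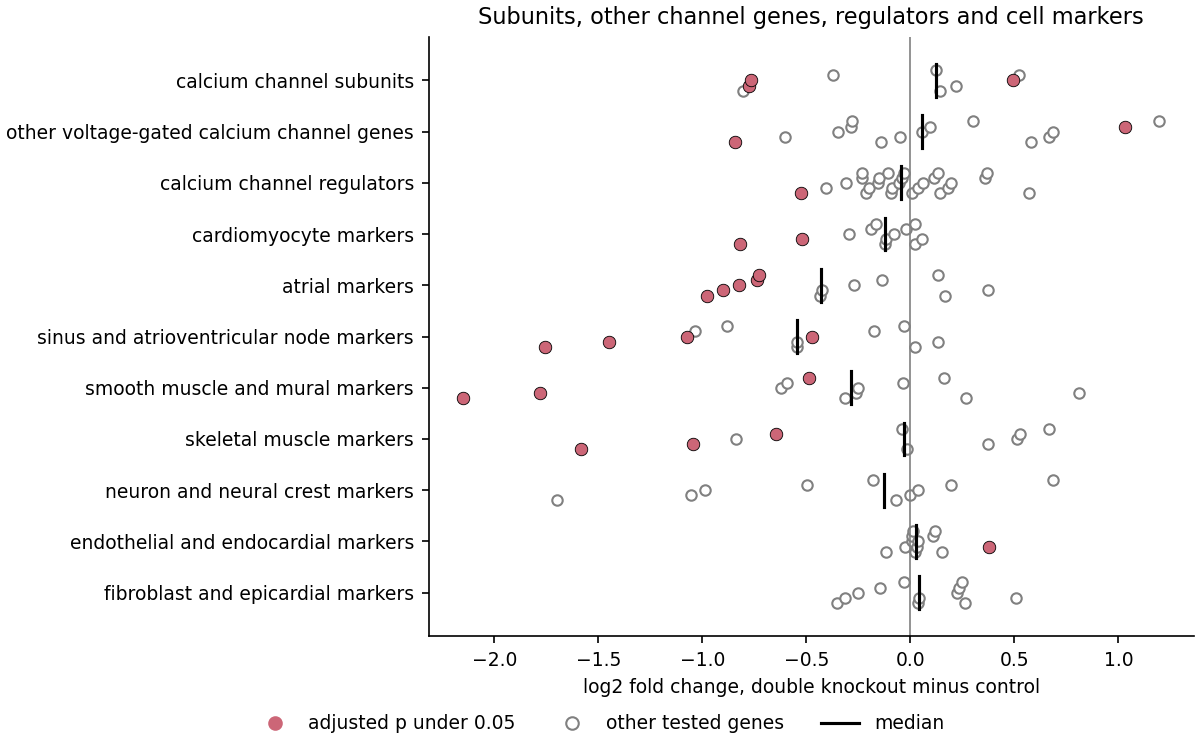
Log2 fold change (horizontal axis, double knockout minus control) of each tested gene by list, filled where the adjusted p was under 0.05, with the list's median as a bar. The subunits spread on both sides of 0, while the atrial and node lists have medians of -0.43 and -0.54.

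The genes whose values were most alike over the 6 libraries were looked up among 10958 other protein-coding genes averaging at least 100. Both genotypes enter these correlations, so any gene with a similar genotype difference scores high, and they are given as a description. For Cacna1d they were Dhodh, an enzyme of pyrimidine synthesis (Pearson's r = 0.997), Slc25a28, a mitochondrial iron carrier (0.995), and Fam234a (0.994). For Cacna1h they were Mcf2l, a guanine nucleotide exchange factor (0.999), Bsn, a presynaptic scaffold (0.998), and Ung, a uracil glycosylase (0.997). For Cacna2d1 they were Kif11, a mitotic kinesin, Srsf11, a splicing factor, and Tmed5, a cargo receptor (each 0.998).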

How the data were processed

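PolyA RNA of 6 embryonic heart libraries (3 per genotype) was sequenced from a TruSeq stranded kit as single-end reads of 75 bases on a NextSeq500, per the labels' protocols. Tools listed in the submitters' processing notes, without roles, are DESeq, DESeq2, featureCounts 1.5.0, STAR 2.4.2a and Trimmomatic, with the build mm10. The deposited table is treated as a score: the authors' values are whole numbers that, from their spacing, look like counts of reads that were rounded after scaling each library by a single factor, so no count model was run. Whether counting used strand is not stated. Genes whose exons overlap those of the 9 subunit genes lie on the opposite strand and had at most 9 normalised reads. Genes that lie only within introns were not examined.

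In R 4.3.3, limma 3.58.1 was fitted to log2(value + 1) of the 26747 genes with a mean of at least 1 in a genotype, with a variance trend, the robust option and Benjamini-Hochberg adjustment over all of them. The procedure was also run on simulated counts without library or GC effects, so that run cannot show how such effects change the calls. The GC and length correction subtracted a spline (5 degrees of freedom) per library. Lengths, GC content and positions came from GENCODE M21 (99.3% of genes matched). Genes named are the 9 subunits, the targeted genes, genes of the other lists that passed with the most abundant 2 that did not, and the 3 most alike for each called subunit. Markers named beside them were chosen after their values were seen. The subunits and lists were chosen with earlier results of these data known. Alternatives changed scaling, filter, pseudocount, variance model, threshold, GC correction, replicate block and the libraries included.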

Additional observations from a re-analysis of the deposited data

How the results depend on the processing

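Under 21 alternatives per gene, Cacna1d, Cacna1h and Cacna2d2 kept a negative and Cacna2d1 a positive difference, and the 5 shares kept their direction under other lengths, without each library, with the replicate block and after GC and length correction (added after seeing the data). The count of subunits that rose (1) was 0 without the robust option, 0 without it and the variance trend, 0 with voom weights, 0 at an adjusted p under 0.01, 0 without both libraries numbered 3, and 2 with no filter on low values. The count that fell (2) was 0 without the robust option, 0 without it and the variance trend, and 0 without both libraries numbered 3, with 6, 4 and 5 of 9 subunits at an unadjusted p under 0.05 in these 3 fits. The count over other channel genes and regulators (3) was 0, 0 and 0 in these same fits, 1 with voom weights and 5 after GC and length correction, which adds Akap5, Akap6 and Prkacb and loses Cacna1s. Over all genes, 350 were called without the robust option and 38 without both libraries numbered 3, against 1299, and 1546 after GC and length correction. Leaving out 1 library gave 0 to 1 risen subunits, 2 to 3 fallen subunits and 1 to 4 other genes. Cacnb2 turned to -0.025 after GC and length correction, and to -0.025 with the replicate block added. The cause of these changes was not tested. The labels do not say what the replicate numbers mark. Deviations of same-numbered libraries correlated at 0.089, 0.108 and 0.366. Control 1, knockout 1 and knockout 2 each correlated best with a library of another number, while the pair numbered 3 shares a male pattern. With the replicate block 1355 genes were called, and 3 subunits fell, Cacna2d2 among them (-0.81, limma adjusted p = 1.2e-05). Cacna1g and Cacnb1 had the lowest means of the 9 subunits, at 86 to 262 normalised reads per library, while the largest SE was that of Cacna2d2 (0.24). The part of depth in these results was not tested.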
